A study of Mus musculus with 6 samples.

Results

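Expression of the genes for voltage-gated calcium channels, voltage-gated sodium channels and TRP cation channels was compared in pancreatic islets of pregnant and non-pregnant mice. Members were taken by symbol: every probe set with a single platform symbol that begins with Cacna, Cacnb or Cacng, or with Scn, Trpc, Trpm or Trpv followed directly by a number. This gave 124 probe sets for 54 genes, out of 18193 genes with a single symbol on the array. The probe set brightest on average over the 6 arrays, on the scale log2(signal + 16), stood for its gene, and 35 of the 54 were bright enough to be tested, among 12914 such genes in all. One member, Trpc4ap, encodes a protein associated with TRPC4 and is no channel.

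The islets, clusters of endocrine cells that lie within the enzyme-secreting exocrine pancreas, were freed with collagenase. There are 3 arrays of islets from non-pregnant animals, labelled 0 dpc (days post coitum), and 3 from animals at 12.5 dpc, in a study that looked for factors behind islet growth in pregnancy. The labels name no treatment or engineered allele, and the sources used here do not give strain, age or the number of animals behind each array. Nothing says that the arrays of a group are separate animals, so the p-values rest on a spread between samples that may be technical. Values are MAS5 signals, which are background-corrected probe set intensities scaled to 1 target on all arrays. Signals of different probe sets are not compared as levels, and the small number of arrays limits the precision.

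In a beta cell, closure of potassium channels depolarises the membrane, sodium and calcium channels carry the action potential, and calcium entering through voltage-gated channels triggers release of insulin granules. A voltage-gated calcium channel is built on a pore-forming alpha-1 subunit, whose trafficking and gating are set by alpha-2-delta and beta subunits. Gamma subunits are related membrane proteins, several of which serve AMPA-type glutamate receptors. Sodium channels pair a pore-forming alpha subunit with small beta subunits. TRP channels are mostly non-selective cation channels that open on signals such as receptor activation, calcium or temperature.

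The samples held islet RNA, and an exocrine signal that differed between the groups. The insulin gene Ins2 lay between 16958 and 21728 on all arrays, glucagon (Gcg) between 44756 and 49732, and 1 of 9 beta cell markers tested was higher and 2 lower in pregnancy. Acinar markers, genes of the exocrine cells that secrete digestive enzymes, moved with the groups. Of 16 tested 15 were lower in pregnancy and 0 higher (16 of 16 had differences below 0), and their summed signal was 179368 to 343891 on non-pregnant and 104108 to 170505 on pregnant arrays. Stellate, fibroblast and smooth muscle markers had 3 of 11 lower and 0 higher, with summed signals of 15001.7 to 15206.5 and 10424.3 to 13454.1. Neuron and Schwann cell markers had 2 of 8 lower and 0 higher, with summed signals of 10936.2 to 12250.3 and 10787.4 to 11335.1. Most of those sums came from Snap25 alone (mean signal 7386, log2 difference 0.04), so they say little about the dimmer markers of that list. No marker was at 0 on average, but the dimmest were under the filter for testing. These were the duct marker Cftr (mean signal 14.2), the T cell marker Cd3e (17.4) and the glial marker Gfap (32.9). Cftr and Cd3e lay within the signals of control probe sets for a bacterial transcript, 1.1 to 32.3. Of the lists not named here, alpha cell markers had 2 of 5 lower, delta, PP and ghrelin cell markers 1 of 6, duct markers 1 of 3, endothelial markers 1 of 8, and macrophage and lymphocyte markers 0 of 6, with 0 higher in each. The ratio of 3' to 5' actin control probe sets, a measure of RNA integrity, was 1.56 to 1.63 on non-pregnant and 1.63 to 1.66 on pregnant arrays, just without overlap, and that of Gapdh was 0.669 to 0.711 and 0.687 to 0.725. The part of these shifts in the channel results was not tested. An acinar covariate, described below, was among the alternative settings. It moved with the groups, at -0.12 to 1.06 on non-pregnant and -0.96 to -0.24 on pregnant arrays. A fit with it therefore cannot tell pregnancy and acinar content apart. In whole islets, fewer cells of a type and less RNA per cell cannot be told apart.

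Members were called lower in about the same share as all genes. Of the 35 tested, 2 (5.71%) were lower in pregnancy and 0 higher at an adjusted p under 0.05 in limma. Over all genes tested, 5.79% were called lower and 6.1% higher. The 2 that fell were Cacna2d1, an alpha-2-delta subunit bound by gabapentin, and Cacng4, a gamma subunit. At an unadjusted p under 0.05 there were 10 members, 3 higher and 7 lower, or 28.6% against 27.2% of all genes. The groups did not overlap in 11 of the 35, or 31.4% against 31.8% of all genes. The shares called lower, at an unadjusted p under 0.05 and without overlap were near those of all genes. The 0 called higher, beside 6.1% of all genes, rests on only 35 genes and is not read as a trait of the members. With each array centred on its median log2 value, all genes split into 872 higher and 329 lower calls in place of 788 and 748, and among members 1 was higher (Scn9a) and 0 lower.

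The direction of the differences was less even than in all genes. A log2 difference below 0 was found in 27 of the 35 (77.1%), against 56.5% of all genes tested, and the median was -0.22 against -0.04. No p is attached to this, since the genes are not replicates. With every gene set to a mean of 0, the median member stood at 0.12, 0.14 and 0.09 on the non-pregnant arrays (replicates 1 to 3) and at -0.05, -0.03 and -0.10 on the pregnant arrays. The non-pregnant arrays were thus all above the pregnant arrays, with a spread within groups of 0.03 (SD). These medians were taken before any centring of the arrays. The median signal over all probe sets was 89.9, 100.3 and 95.4 on non-pregnant and 89.6, 86.1 and 92.9 on pregnant arrays. With median centring the members' median was -0.15 and that of all genes 0.04, and with the acinar covariate the values were -0.19 and -0.03. Averaging the probe sets of a gene, which left 18 members tested, gave -0.10 and -0.04.

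**Figure D1:**
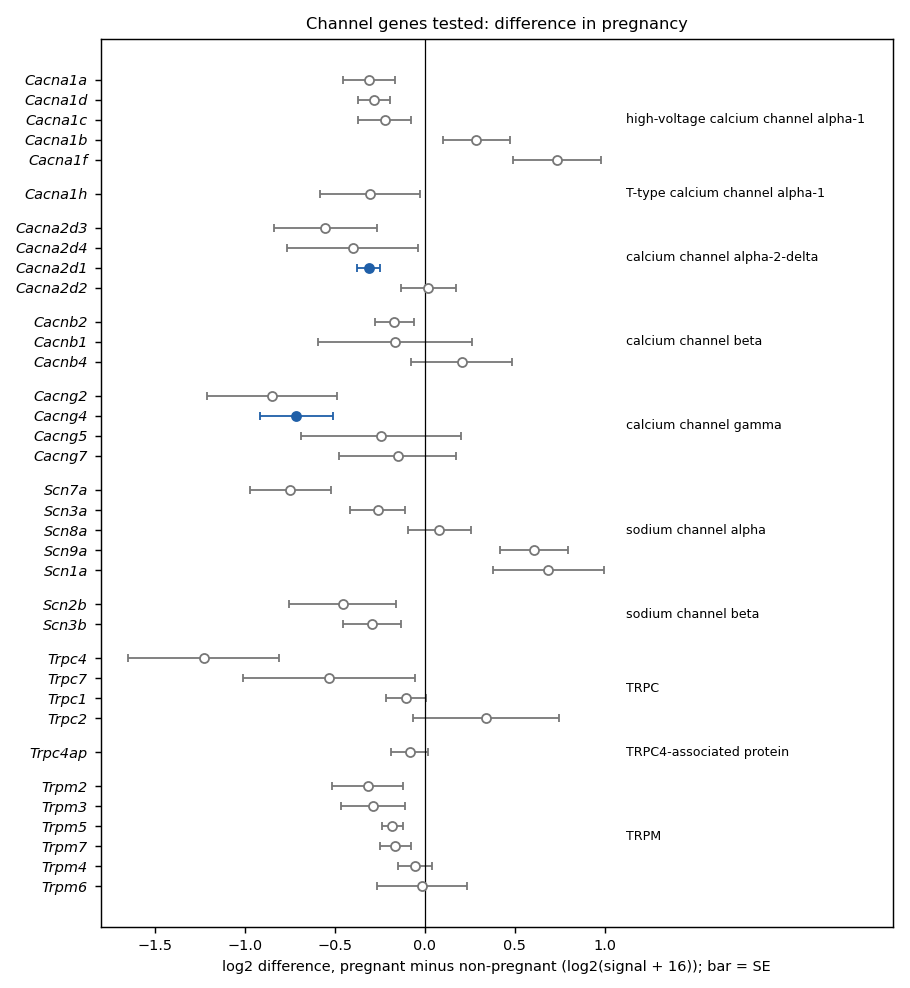
Log2 difference (pregnant minus non-pregnant, on log2(signal + 16)) of the 35 members tested (34 channel genes and Trpc4ap), grouped by the part each protein plays, with limma's standard error as bars. Filled blue points are the 2 genes past the threshold, Cacna2d1 and Cacng4; 27 of the 35 points lie to the left of 0.

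**Figure D2:**
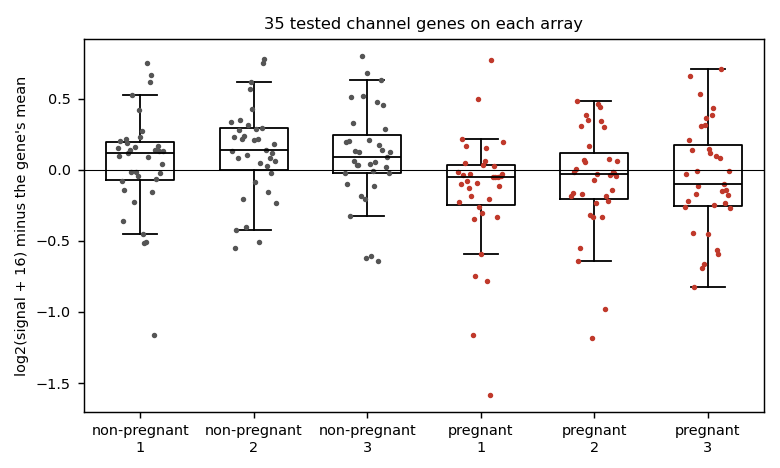
Centred log2(signal + 16) of the 35 members tested (34 channel genes and Trpc4ap) on each of the 6 arrays, 1 point per gene, with boxes for the quartiles, a line for the median and whiskers to 1.5 times the box height. The 3 non-pregnant medians (0.12, 0.14 and 0.09) lie above the 3 pregnant medians (-0.05, -0.03 and -0.10).

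Among the pore-forming calcium channel subunits, 0 of 6 tested passed. Cacna1d encodes the L-type pore Cav1.3, which with Cav1.2 carries much of the calcium current of mouse beta cells. Its signals were 1024.6, 1049.5 and 1092.9 on non-pregnant and 811.9, 850.9 and 933.8 on pregnant arrays. The pregnant arrays were all below the non-pregnant ones, by 18.0% on the means, and the log2 difference was -0.28 ± 0.09 (SE; limma adjusted p = 0.069). Its other tested probe set had -0.22 ± 0.26.

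Cacna1c, the L-type pore Cav1.2, had 330.3, 336.9 and 265.4 without pregnancy and 264.6, 282.2 and 242.9 in pregnancy. The groups overlapped, and the log2 difference was -0.22 ± 0.15 (adjusted p = 0.42). The second Cacna1c probe set did not overlap, at 245.2, 295.6 and 240.4 against 216.9, 143.0 and 146.6 (-0.60 ± 0.19, adjusted p = 0.072). Cacna1a, the P/Q-type pore, had 343.0, 391.7 and 301.6 against 303.8, 268.6 and 253.2 with overlap (-0.31 ± 0.15, adjusted p = 0.23), and its 3 tested probe sets ran from -0.59 to 0.41. None of the differences in these 3 pores passed the threshold, and each was below 0 in the gene's brightest probe set.

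The other pores differed in sign. Cacna1f, the L-type pore Cav1.4 known from photoreceptors, had 79.5, 75.2 and 81.7 against 103.3, 154.9 and 177.0. All pregnant arrays were higher, and the log2 difference of 0.74 ± 0.24 was the largest above 0 of the 35 but did not pass (adjusted p = 0.085). Cacna1b, the N-type pore, had 0.29 ± 0.19 (adjusted p = 0.41). Cacna1h, a T-type pore that opens at low voltage, had 94.8, 113.4 and 158.2 against 110.4, 62.2 and 118.3 with overlap (-0.30 ± 0.28, adjusted p = 0.58). Cacna1e (the R-type pore), Cacna1s (the pore of skeletal muscle) and the T-type Cacna1g were too dim to be tested. The second Cacna1e probe set, also under the filter, had 80.7, 39.9 and 42.4 against 6.2, 7.8 and 8.5. All its pregnant signals were lower, while the groups overlapped in the brighter one, at 12.1, 23.6 and 77.8 against 34.6, 50 and 21.4.

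Cacna2d1 was the clearest change in the set. Its signals were 3358.3, 3584.3 and 3390.6 on non-pregnant and 2823.7, 2747.6 and 2745.5 on pregnant arrays. Every pregnant array was below every non-pregnant one, and the gap between the groups was larger than the spread in either. The mean went from 3444 ± 122 (SD, n = 3) to 2772 ± 44.6, a change of -19.5%, with a log2 difference of -0.31 ± 0.06 (limma adjusted p = 0.0080). Over 5 tested probe sets 2 were lower, the second at 1043.8, 912.9 and 1038.7 against 766.6, 645.5 and 721.0 (-0.48 ± 0.10, adjusted p = 0.010). The other 3 had -0.28 ± 0.12, -0.32 ± 0.34 and 0.15 ± 0.25.

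The Cacna2d1 call held with any 1 array left out, at adjusted p-values of 0.012 to 0.037. It was lost with median centring (-0.24, adjusted p = 0.099), without the variance trend (adjusted p = 0.10), with the acinar covariate (-0.40, adjusted p = 0.099) and with the gene's 5 probe sets averaged (-0.25, adjusted p = 0.24). In RefSeq (GRCm38.p6) the 250 bases before the start of Cacna2d1 lie at chr5:15934441-15934690 on the plus strand. They are shown because this gene carries the most stable call of the set, with CG dinucleotides in capitals.
Cacna2d1: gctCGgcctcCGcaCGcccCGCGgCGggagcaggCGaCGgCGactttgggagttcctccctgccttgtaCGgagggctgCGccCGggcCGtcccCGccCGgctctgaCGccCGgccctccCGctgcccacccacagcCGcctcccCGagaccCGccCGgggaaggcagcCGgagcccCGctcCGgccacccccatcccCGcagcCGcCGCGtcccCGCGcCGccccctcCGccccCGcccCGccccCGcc
The stretch holds 36 CG dinucleotides and 82.4% G or C, where the median over all 32851 RefSeq windows of this length was 6 and 52.4%. This is a description of the sequence, and the arrays measured nothing there.

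The other alpha-2-delta genes did not pass. Cacna2d2 had 243.1 ± 30.7 and 245.7 ± 9.71 (0.02 ± 0.15, adjusted p = 0.96). Cacna2d3 had 90.2, 94.9 and 98.8 against 86.5, 46.5 and 51.1, without overlap (-0.55 ± 0.28, adjusted p = 0.28), and Cacna2d4 had -0.40 ± 0.36. The beta subunits, which chaperone the pore to the membrane, gave 0 of 3. The beta-2 gene Cacnb2 had 689.8, 825.6 and 716.4 against 611.3, 724.9 and 642.5 with overlap (-0.17 ± 0.11, adjusted p = 0.40), Cacnb1 had -0.16 ± 0.43 and Cacnb4 0.21 ± 0.28.

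Cacng4, which encodes a gamma subunit that also serves AMPA receptors, was the only gamma gene of 4 tested to pass. Its signals were 233.5, 358.8 and 345.4 on non-pregnant and 221.1, 186.5 and 143.8 on pregnant arrays. The groups were separate, though non-pregnant replicate 1 lay close to pregnant replicate 1. The mean fell by 41.2%, from 312.6 ± 68.8 to 183.8 ± 38.7 (log2 difference -0.71 ± 0.20, limma adjusted p = 0.046), and a second probe set had -0.35 ± 0.21 (adjusted p = 0.36).

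The Cacng4 call sat at the threshold and failed in 11 of 18 alternatives. It was lost when any 1 of 5 arrays was left out, with adjusted p-values of 0.16 without non-pregnant replicate 2, 0.14 without non-pregnant replicate 3, 0.052 without pregnant replicate 1, 0.10 without pregnant replicate 2 and 0.15 without pregnant replicate 3. The difference itself stayed below 0 in all 18, between -1.21 and -0.53, and with the acinar covariate it was -1.21 (adjusted p = 0.086). Of the other gamma genes Cacng2, the AMPA receptor partner stargazin, had 62.4, 71.2 and 105.8 against 25.7, 62.6 and 27.5 (-0.85 ± 0.36, adjusted p = 0.18). Cacng5 had -0.24 ± 0.44 and Cacng7 -0.15 ± 0.33, while Cacng1, Cacng3, Cacng6 and Cacng8 were too dim to be tested.

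**Figure D3:**
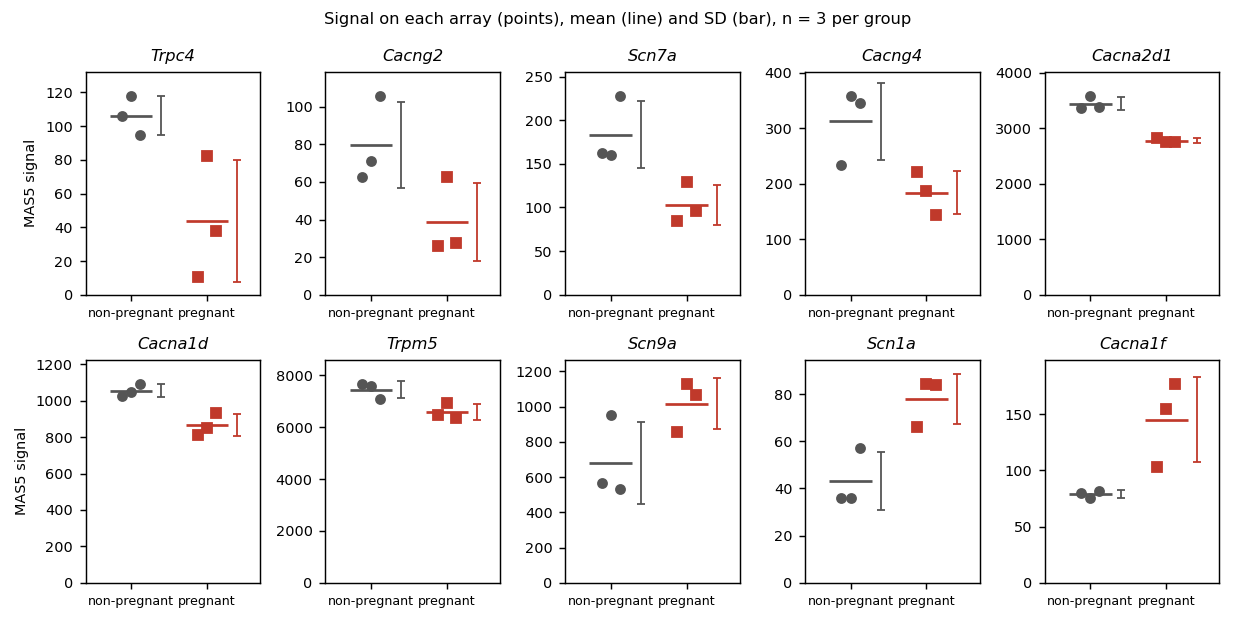
MAS5 signal on each array for the 10 tested channel genes with an unadjusted limma p under 0.05, with the mean of each group as a line and its SD as a bar (n = 3). Cacna2d1 and Cacng4 passed the adjusted threshold; Scn9a, Scn1a and Cacna1f have higher and the other 7 lower means in pregnancy.

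No sodium channel gene passed, and those with the smallest p pointed in opposite directions. Of 7 tested, 3 had an unadjusted p under 0.05. Scn9a, the alpha subunit Nav1.7 that carries most of the sodium current of mouse beta cells, had 564.6, 950.4 and 529.9 on non-pregnant and 853.9, 1130.1 and 1068.2 on pregnant arrays. Non-pregnant replicate 2 was above pregnant replicate 1, so the groups overlapped, and the log2 difference was 0.61 ± 0.19 (adjusted p = 0.065). The means were 681.6 ± 233 and 1017 ± 145. All 5 Scn9a probe sets had values above 0, from 0.20 to 0.61, and the second brightest did not overlap (327.5, 241.6 and 174.7 against 364.9, 362.1 and 387.9, with 0.60 ± 0.19, adjusted p = 0.075).

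Scn9a passed in 3 of 18 alternatives. These were median centring (0.68, adjusted p = 0.027), the replicate number as a block (0.61, adjusted p = 0.017) and the fit without non-pregnant replicate 2 (0.87, adjusted p = 0.0019). The centred median of the acinar markers was -0.12 on non-pregnant replicate 2. It was 1.06 on each of the other non-pregnant arrays and -0.96 to -0.24 on the pregnant arrays. With the acinar covariate, which moved with the groups, Scn9a had 0.06 (adjusted p = 0.95). A part of acinar content in the Scn9a values was not tested. Scn7a, which encodes the sodium-sensing channel Nax found in glia and stroma, had 162.8, 160.0 and 227.9 against 84.8, 128.7 and 95.6. Here the pregnant arrays were all lower (-0.75 ± 0.22, adjusted p = 0.059), by 43.9% on the means. Array weights alone brought it past the threshold. The Schwann cell markers Sox10 and S100b had -0.39 ± 0.19 and -0.45 ± 0.28 beside it (adjusted p = 0.26 and 0.38). Of 11 stellate, fibroblast and smooth muscle markers 3 passed as lower. Log2 differences of the 11 ran from -1.20 ± 0.14 (Dcn, adjusted p = 2.8e-04) to 0.33 ± 0.22 (Des). Whether those cells account for Scn7a was not tested.

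Scn1a, Scn9a and Scn7a are consecutive protein-coding genes in the RefSeq order, with Scn3a and Scn2a near them. Scn1a, the alpha subunit Nav1.1, was dim, at 36.0, 35.8 and 57.2 against 65.9, 84.4 and 83.9 (0.69 ± 0.31, adjusted p = 0.21). Its pregnant signals were all higher. Scn3a, the alpha subunit Nav1.3, had 473.4, 366.1 and 453.2 against 312.0, 329.7 and 432.9 with overlap (-0.26 ± 0.15, adjusted p = 0.35), and Scn2a was too dim to be tested. The neighbours thus had values of both signs, and the difference between them was not tested.

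Scn8a, the alpha subunit Nav1.6, had 0.08 ± 0.17 (adjusted p = 0.84), and its 4 tested probe sets ran from -0.41 to 0.32. Of the beta subunit genes, Scn3b had 276.3, 320.8 and 268.6 against 222.2, 201.9 and 277.9 (-0.29 ± 0.16, adjusted p = 0.31) and Scn2b had -0.46 ± 0.29, both with overlap. Scn10a, Scn11a and Scn4b were too dim to be tested.

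**Figure D4:**
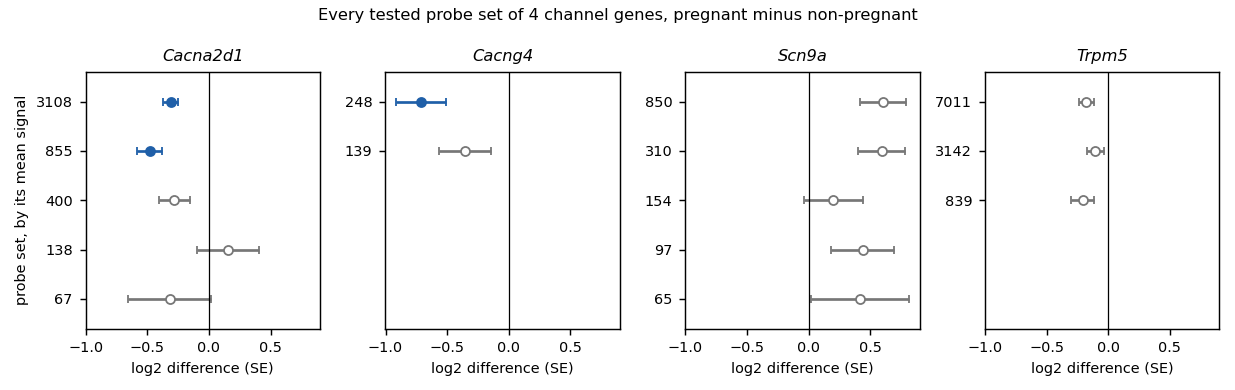
Log2 difference (pregnant minus non-pregnant) with limma's SE for each tested probe set of Cacna2d1, Cacng4, Scn9a and Trpm5, from the brightest at the top, labelled by mean signal. Filled blue points passed the threshold: 2 of 5 for Cacna2d1 and 1 of 2 for Cacng4. All 5 Scn9a points lie above 0 and all 3 Trpm5 points below 0.

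Of the 10 TRP channel genes tested 0 passed in limma. Trpm5, a calcium-activated cation channel that depolarises taste cells and beta cells, had 7677.3, 7586.4 and 7076.9 on non-pregnant and 6454.7, 6930.8 and 6339.5 on pregnant arrays. The groups did not overlap, and the means were 11.7% apart (-0.18 ± 0.06, adjusted p = 0.088). Its 3 probe sets had -0.21 to -0.11. With quantile normalization it passed (-0.23, adjusted p = 0.024), and with median centring it had -0.10 (adjusted p = 0.57).

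Trpm4, the close relative of Trpm5, had 653.1, 664.9 and 626.7 against 623.8, 616.9 and 633.4, with an overlap (-0.05 ± 0.09, adjusted p = 0.81). Trpm7, a channel fused to a kinase that admits magnesium and calcium, had 1160.9, 1337.6 and 1256.2 against 1145.2, 1159.1 and 1041.8, just without overlap (-0.16 ± 0.09, adjusted p = 0.30), and its 4 probe sets ran from -0.16 to 0.23. Trpm2, a channel opened by ADP-ribose and oxidants, had 157.0, 175.6 and 231.2 against 127.3, 159.7 and 152.6 (-0.32 ± 0.20, adjusted p = 0.38), and its other probe set had 0.39 ± 0.27. Trpm3, a steroid-sensitive channel of beta cells, was 186.1 ± 21.4 and 149.4 ± 10.7 without overlap (-0.29 ± 0.18, adjusted p = 0.38), and its other probe set had 0.02. Trpm6 had -0.01 ± 0.25. All 6 TRPM genes tested had values below 0 in their brightest probe set, none past the threshold. With median centring Trpm4 and Trpm6 lay above 0, at 0.02 and 0.06, and Trpm6 was above 0 in 7 of 16 alternatives.

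In the TRPC group, which is gated downstream of phospholipase C, 0 of 4 channel genes passed. Trpc1 had 811.2, 997.9 and 1023.6 against 874.9, 794.7 and 958.3 (-0.10 ± 0.11, adjusted p = 0.65), and its other tested probe set had 0.43. The groups overlapped. Trpc4 had the largest log2 difference of any member tested, at 106.1, 117.9 and 94.7 against 10.6, 82.3 and 37.9 (-1.23 ± 0.42, adjusted p = 0.095). Of its pregnant signals, 10.6 lay within the 1.1 to 32.3 of the bacterial control probe sets, and 37.9 under the filter signal of about 50.5. Its second tested probe set had -0.56 ± 0.36 with overlap (adjusted p = 0.41). All its pregnant signals were lower but widely scattered, and of 16 alternatives it passed only without pregnant replicate 2 (-1.69, adjusted p = 0.028). Without pregnant replicate 1, the lowest, it had -0.74. A pseudocount of 64 gave -0.71 and a pseudocount of 1 gave -1.67.

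The groups overlapped in Trpc7 (-0.53 ± 0.48) and in Trpc2 (0.34 ± 0.40), whose other probe set had -0.34. Trpc4ap, the associated protein, had 1058 ± 122 and 995.4 ± 80.7 (-0.08 ± 0.10). Trpc5, Trpc6, Trpm1 and Trpm8 were too dim to be tested, as were all TRPV members on the list, Trpv1, Trpv2, Trpv4 and Trpv6. Trpv2, the brightest TRPV member, had 52.0, 24.1 and 68.5 on non-pregnant and 57.5, 66.7 and 40.7 on pregnant arrays, with overlap.

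The 19 members that were not tested had mean signals of 5.68 to 51.6. In 13 of them the mean did not exceed 32.3, the highest signal of control probe sets for a bacterial transcript. Cacng3, singled out after its values were seen, was the 1 gene of the 19 whose groups did not overlap in the brightest probe set, at 28.3, 15.8 and 13.3 against 44.9, 41.2 and 46.4, in the range of dim probe sets. In dimmer probe sets the groups were also apart for Cacna1e, given above, and for 1 of 4 of Scn2a, at 22.0, 19.1 and 11.7 against 33.0, 27.9 and 33.4.

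Genes that work with these channels were read from a list of 79, of which 69 were named on the array and 59 tested. In limma 8 were lower in pregnancy (13.6%, beside the 5.79% of all genes) and 1 higher (1.69%, beside 6.1%). The list was chosen with earlier results of these data known, so these shares are a description and no test of the list. The ER calcium sensors Stim1 and Stim2, which open store-operated channels when ER calcium is low, both fell. Stim2 had 1424.3, 1381.2 and 1281.3 on non-pregnant and 771.8, 1031.3 and 804.9 on pregnant arrays (-0.65 ± 0.11, adjusted p = 0.0030). Stim1 had 1001.3, 1068.7 and 1127.7 against 768.8, 827.8 and 603.8 (-0.54 ± 0.12, adjusted p = 0.013). The groups were well apart in both of these probe sets, and the calls held with any 1 array left out and with median centring. The other tested probe sets did not pass, with -0.25 ± 0.14 for Stim1 (adjusted p = 0.33) and -0.04 ± 0.43 for Stim2 (adjusted p = 0.98). The channel genes that the sensors open were not past the threshold, with -0.02 for Orai1, -0.21 for Orai2 and 0.16 for Orai3, and the inositol trisphosphate receptor Itpr3 had -0.39 (adjusted p = 0.062). In that group 2 of 7 were lower and 0 higher.

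Of the regulators of sodium channels 3 of 7 were lower and 0 higher. The fibroblast growth factor homologous factors Fgf12 and Fgf13 bind the tail of sodium channel alpha subunits, and ankyrin G (Ank3) anchors those subunits in the membrane. Fgf12 had 1017.1, 914.4 and 738.5 against 615.6, 586.3 and 581.3 (-0.56 ± 0.12, adjusted p = 0.011). Fgf13 had 366.3, 245.5 and 338.8 against 120.6, 202.6 and 157.3 (-0.93 ± 0.21, adjusted p = 0.015), and Ank3 1844.9, 1831.3 and 1383.8 against 1184.6, 1202.3 and 919.1 (-0.60 ± 0.13, adjusted p = 0.011). None of the 3 overlapped between groups in these probe sets. The other tested probe sets of Fgf12 (-0.23 and -0.47) and Ank3 (-0.30, -0.14 and -0.19) did not pass. The neuronal markers Nefl and Prph were also lower (-0.81 ± 0.19 and -1.18 ± 0.29, adjusted p = 0.020 and 0.024), whereas Tubb3, Th and Snap25 had -0.19, 0.02 and 0.04. The neurofilament gene Nefm had the opposite sign to Nefl, with all pregnant arrays higher (0.29 ± 0.10, adjusted p = 0.10). A part of nerve fibres in the result was not tested. Fgf13 lost its call when 1 of 3 arrays was left out: non-pregnant replicate 1 (adjusted p = 0.061), non-pregnant replicate 3 (0.057) or pregnant replicate 1 (0.065).

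Of the regulators of voltage-gated calcium channels, 1 of 8 was lower and 0 higher. This was Gem, a small GTPase that holds back L-type current, with 2639.8, 3196.5 and 2566.9 against 1837.5, 2359.3 and 1976.0 (-0.44 ± 0.10, adjusted p = 0.020). It lost its call without non-pregnant replicate 2 (adjusted p = 0.071), without pregnant replicate 1 (0.097), without pregnant replicate 3 (0.069) and with median centring (0.065). Its relative Rem2 had -0.33 ± 0.10 (adjusted p = 0.076).

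Among calcium sensors and kinases 2 of 10 were lower and 0 higher. The calcineurin subunit Ppp3ca fell from 1344.3, 1281.1 and 1269.5 to 959.5, 1042.3 and 978.8 (-0.38 ± 0.08, adjusted p = 0.011) and the calmodulin-dependent kinase subunit Camk2b from 2623.3, 2660.7 and 2497.8 to 2299.3, 1917.6 and 2106.7 (-0.30 ± 0.08, adjusted p = 0.032). Neither group pair overlapped. Ppp3ca did not pass without pregnant replicate 1 (adjusted p = 0.055), and Camk2b did not without non-pregnant replicate 1 (0.067), non-pregnant replicate 2 (0.092), pregnant replicate 2 (0.13) or pregnant replicate 3 (0.083). With median centring neither passed (adjusted p = 0.090 and 0.17).

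The Golgi calcium and manganese pump Atp2c1 was the 1 partner gene that rose, at 2334.0, 2631.7 and 2311.9 against 3202.6, 3058.9 and 3063.1 (0.36 ± 0.07, adjusted p = 0.0078). In that group 1 of 12 pumps and exchangers was higher and 0 lower, and the ER pump Atp2a2 had 0.07 (adjusted p = 0.46). Atp2c1 has 5 probe sets, of which 2 rose, and averaging the 5 gave 0.10 (adjusted p = 0.59). Of 15 other cation channels 0 passed in either direction in limma, among them the sodium leak channel Nalcn (0.05) and its partner Unc80 (-0.20, adjusted p = 0.11).

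With each gene's probe sets averaged, Stim2 (-0.34, adjusted p = 0.38), Ank3 (-0.15, 0.50) and Fgf13 (-0.31, 0.42) did not pass either. Without the variance trend 0 partner genes passed. With the acinar covariate 1 did, Ank3 (-0.92, adjusted p = 0.042), while Stim1 had -0.69 (0.12), Stim2 -0.67 (0.13), Fgf12 -0.65 (0.16) and Fgf13 -0.39 (0.66). These settings also cut the calls over all genes, from 788 higher and 748 lower to 252 and 102 without the trend. With the acinar covariate the calls over all genes were 231 and 103.

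**Figure D5:**
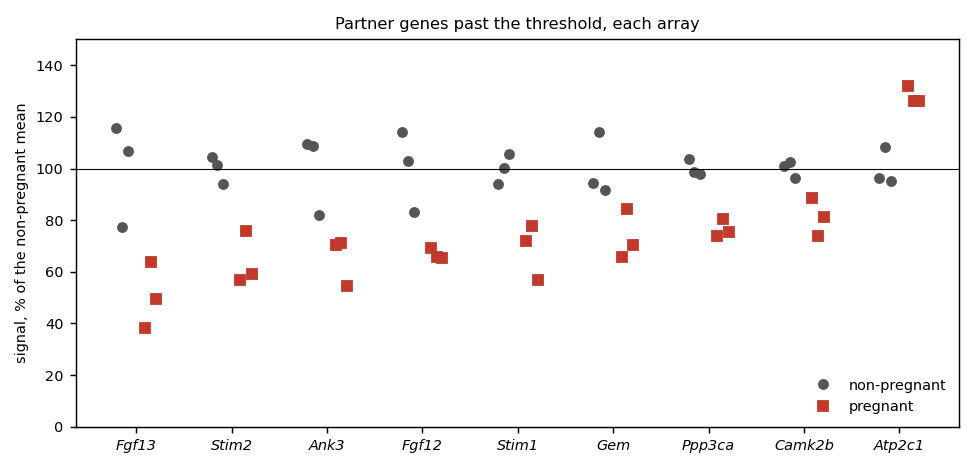
Signal on each array as a percentage of the gene's non-pregnant mean, for the 9 partner genes past the threshold (circles, 3 non-pregnant arrays; squares, 3 pregnant arrays). In the 8 genes that fell every square lies below every circle, and in Atp2c1 above.

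Promoter windows (250 bases before to 50 after the start) were found for 45 of the 54 members, 59 windows in all, in RefSeq. The STAT5 motif TTCNNNGAA, which reads the same on both strands, was in 7 of these 59 windows and in 8.3% of all 32851 windows. The 7 members with it were Cacna1c, Scn2a, Scn2b, Scn9a, Trpm3, Trpm8 and Trpv6. The estrogen response element, GGTCA and TGACC with 3 bases between them, was in 0 of the 59 and in 0.07% of all windows. The Cacna2d1 window held neither motif, and no window was found for Cacng4. A match is a stretch of letters and no measured site.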

How the data were processed

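Islet RNA was amplified into biotin-labelled cRNA with an Affymetrix 3' IVT kit, per the labels' protocols. The authors deposited intensities on a linear scale, 1 value per probe set and array, as MAS5 signals per the submitters' processing notes. The version of MAS5 and its settings were not given in the sources used. All arrays had the same 2% trimmed mean, 500.003, and the median signals were 86.1 to 100.3.

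Of 45101 probe sets 64 controls were left out. Values were taken as log2(signal + 16), and probe sets in the top 60% by mean (27022, signal above about 50.5) were fitted over all genes with limma 3.58.1 in R 4.3.3 (lmFit, eBayes with a variance trend), 2-sided, Benjamini-Hochberg adjusted over all 27022, threshold 0.05. Errors of log2 differences are limma's SE. Gene symbols came from the platform annotation: 34958 probe sets had 1 symbol, 932 several and 9211 none. Gene sequences and order came from RefSeq (GRCm38.p6). The fit was tested on simulated data.

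Named with values are members past the threshold, the brightest of each role, those past 1 in log2 difference and genes of prior interest in beta cells, as well as partner genes past the threshold. The other tested members were added after their values were seen. Some genes of these families are not reported here. The members, lists and settings were chosen with earlier results of these data known. Same-numbered arrays shared only a number. Alternatives were pseudocounts of 1 and 64, quantile normalization, median centring, testing all probe sets or the top 40%, robust eBayes or no trend, weighted arrays, a block for the replicate number, leaving out arrays in turn and averaging a gene's probe sets. An acinar covariate (the median acinar marker per array) was chosen after seeing the data. Python 3.11.15 and matplotlib 3.10.9 made the figures.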

Additional observations from a re-analysis of the deposited data

How the results depend on the processing

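The count of members higher in pregnancy, 0 as reported, was 1 with median centring, with the replicate block and without non-pregnant replicate 2 (0 to 1 with any array left out), each time Scn9a. The count of members lower, 2 as reported, was 0 with median centring, without the variance trend and with the acinar covariate, and 1 with no filter, with the replicate block and with the mean of probe sets (1 to 2 with any array left out). Array weights gave 3. Lower calls over all genes were 748 as reported, 329 with median centring, 102 without the variance trend and 103 with the acinar covariate. The members' median, -0.22, was -0.18 with a pseudocount of 64, -0.19 with quantile normalization, -0.15 with median centring, -0.17 with no filter, -0.17 with the top 40% filter, where 18 members were tested, and -0.10 with the mean of probe sets, where 18 were tested (-0.20 to -0.17 with any array left out). It was below 0 in all 18 alternatives. Partner genes lower, 8 as reported, were 5 with median centring, 0 without the variance trend and 1 with the acinar covariate. Partner genes higher, 1 as reported, were 0 without the variance trend, with the acinar covariate and with the mean of probe sets.

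Same-numbered arrays did not deviate together: the correlations of their deviations from the group means were -0.03, -0.07 and 0.03 for numbers 1, 2 and 3, so the block is given here as a setting only. It took 1 call away (Cacng4, adjusted p = 0.066) and added 1 (Scn9a). For the tested members and the partner genes past the threshold, no called difference changed sign in any alternative. The causes of the lost calls were not tested. No array group reached 4 samples, so single outlying arrays were not tested. Members near the filter, with signals around 50.5, are limited by signal over background.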
